A study of Mus musculus with 2 samples.

Results

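The cells described here are barcodes of dissociated MC38 mouse tumours that carried genes of the tumour-like programme and no UMI (unique molecular identifier, 1 counted RNA molecule) of Ptprc, the gene of the leucocyte surface protein CD45. Members were chosen by expression alone. A member held 1000 UMIs or more from 400 genes or more, and no more than 10% of its UMIs were mitochondrial. It also had to have at least 3 of the 8 genes Tm4sf1, Ankrd1, Sox9, Ltbp4, Htra1, Dkk2, Crabp1 and Ccn1, and 0 UMIs of Ptprc and of the fibroblast genes Dcn and Lum. The rule found 286 members among 11573 cells, 207 of 6328 in the LC427 library and 79 of 5245 in the vehicle library. The levels of these 11 genes, and every difference between members and other cells, are descriptions with no test.

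MC38 is an established colon carcinoma line of C57BL/6 mice, and here it was implanted in female C57BL/6 animals that received LC427 or vehicle. LC427 is known here only by its code name, and the series title speaks of targeting LRBA to degrade CTLA4. Tumours were taken on day 14, digested with collagenase and DNase, cleared of dead cells and enriched for CD45 on magnetic beads. Each condition is 1 droplet library (10x 5′ chemistry). Neither the dose of LC427, nor the age of the mice, nor how many were pooled in a library is given in the sources used here. With 1 library a condition there was no replicate check, so no p-value is given. Intervals in brackets are exact 95% intervals (binomial for shares, conditional binomial for ratios of counts) and cover counting error only.

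MC38 was derived from a colon adenocarcinoma, and carcinoma cells can lose keratins and junction proteins and take on genes of mesenchymal cells. Solid tumour cells far from vessels stabilise hypoxia-inducible factors, which switch on glycolytic enzymes, glucose uptake and vessel-forming signals. Tumour cells also respond to interferons from infiltrating leucocytes, which raise antigen presentation on MHC class I and the secretion of T cell attracting chemokines.

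Members were deep and close to free of leucocyte RNA, but a few barcodes carried other programmes. The median member held 12601 UMIs and 3414 genes in the LC427 library and 20044 UMIs and 4308 genes in the vehicle library, against 2289 and 3419 UMIs in the other cells. The other cells are all cells outside the members and outside the barcodes that had at least 3 of the rule's 8 genes together with Dcn, Lum or Ptprc. Of 11 leucocyte genes, 140 of 207 LC427 members and 43 of 79 vehicle members had none. In all, 49 cells shared a barcode sequence between the libraries, and 2 members shared theirs with any cell of the other library.

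Before the results, some members have to be set apart. In the vehicle library 3 members, with 65062, 19736 and 7709 UMIs, had 8, 9 and 2 of 9 endothelial genes and 2, 7 and 4 of 7 pericyte genes. They held 5.40% of all member UMIs of that library, and no LC427 member met the same limits. In the LC427 library 1 member, with 11445 UMIs, held 704 of the 2576 UMIs that all LC427 members had in the fibroblast list, among them 232 of 265 of Col1a1, which encodes collagen I. This member had 3 of the rule's 8 genes and 6 UMIs of Xist. In addition, 12 LC427 and 7 vehicle members had 3 or more of the 11 leucocyte genes, and 1 LC427 member held all 62 UMIs of the dendritic cell chemokine gene Ccl17. Without the members with 3 or more leucocyte genes, 653 of 7486 genes stood 1.5-fold higher or more and 627 lower, and the MHC class II median was -1.55 on the log2 scale, against -0.48 with them. Other values that these barcodes decide are given below with and without them.

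The genes of the rule were seen in most members of both libraries and were near 0 in the other cells, which by definition had fewer than 3 of them. Tm4sf1, a tetraspanin-like membrane protein, was seen in 95.2% of LC427 members and 98.7% of vehicle members, against 0.455% and 0.954% of the other cells of those libraries. It was also seen in 89.0% of LC427 and 94.9% of vehicle barcodes with at least 3 rule genes and a Dcn or Lum UMI. Tm4sf1 was thus not particular to members. In CPM, a gene's share of all UMIs summed over the members of a library, scaled to 1000000, Tm4sf1 stood at 598 in LC427 members and 881 in vehicle members. Ankrd1, a stress-responsive ankyrin protein and YAP target, stood at 295 CPM in LC427 members and 152 CPM in vehicle members. Sox9, a progenitor transcription factor, stood at 231 CPM in LC427 members and 324 CPM in vehicle members. The secreted protease Htra1 had 423 CPM in LC427 members and 349 CPM in vehicle members, and the matricellular Ccn1 had 409 and 286 CPM in that order of libraries. Ltbp4, a binding protein of latent TGF-beta, was seen in 90.3% of LC427 and 93.7% of vehicle members. The Wnt modulator Dkk2 was seen in 64.3% of LC427 and 62.0% of vehicle members, and Crabp1, a retinoic acid binding protein, in 64.3% and 59.5%. The median member had 7 of the 8 genes in both libraries, so most lay far from the limit of 3. Just inside it, with exactly 3 genes, were 6 LC427 and 5 vehicle barcodes, and just outside, with 2 genes and no Ptprc, Dcn or Lum, were 7 LC427 and 10 vehicle barcodes.

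Against the fixed marker lists, members in sum were low in leucocyte genes and lacked most epithelial markers. The leucocyte list summed to 145 CPM in LC427 members and 99.9 CPM in vehicle members, against 9114 and 10554 CPM in the other cells. A subset of 18 members was nonetheless led by leucocyte and macrophage genes. Of 18 epithelial genes, 14 had no UMI in LC427 members and 13 had none in vehicle members. Epcam, Krt18, Krt19, Krt20, Cdx2 and Vil1, which define colon epithelium, were all at 0 in both libraries. The junction protein gene Tjp1 was present at 100 CPM in LC427 members and 109 CPM in vehicle members. The mesenchymal list, with Vim and Sparc, summed to 8749.8 CPM in LC427 members and 8989.7 CPM in vehicle members, above the 5669 and 5688 CPM of the other cells. The fibroblast list was at 928 CPM in LC427 members and 852 CPM in vehicle members. The barcodes set aside for a Dcn or Lum UMI had 2862 CPM in LC427 and 4399 CPM in vehicle for the same list. Of those barcodes, 49 of 145 in LC427 and 25 of 99 in vehicle had a single Dcn UMI, so in Dcn those differed from members by 1 UMI.

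**Figure D1:**
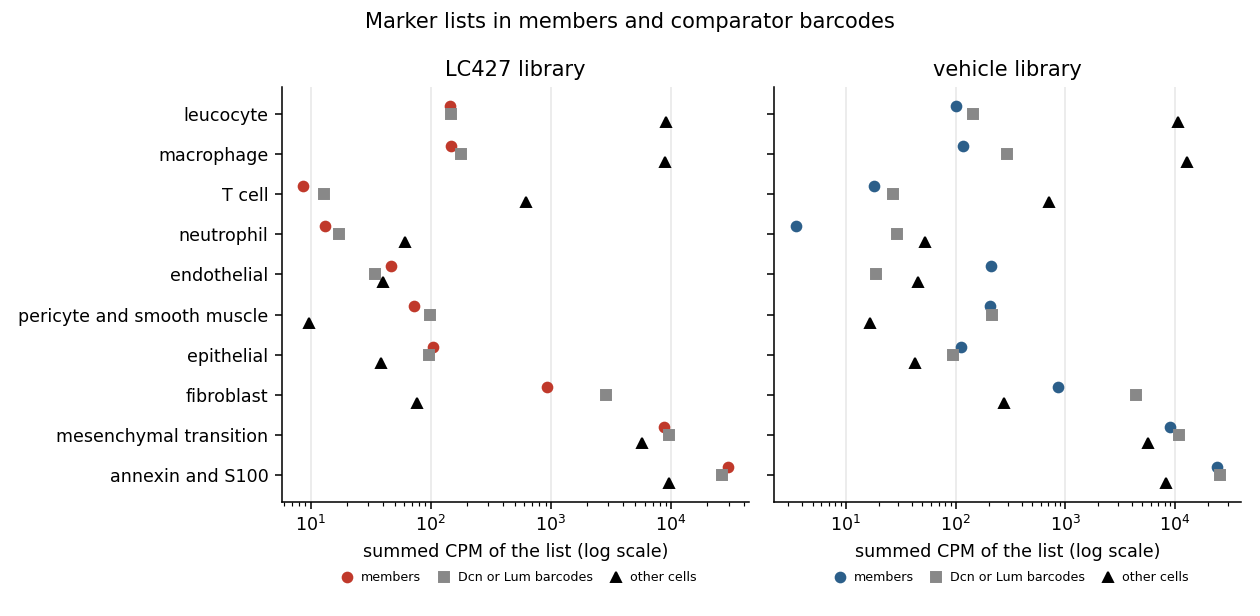
Summed CPM (log scale) of 10 marker lists, LC427 library at left and vehicle library at right, in members (circles), barcodes with 3 rule genes and a Dcn or Lum UMI (squares) and other cells (triangles). In members the leucocyte list lies at 145 CPM in LC427 and 99.9 CPM in vehicle, while the annexin and S100 list lies at 29419 CPM in LC427 and 23967 CPM in vehicle.

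Xist, the non-coding RNA that coats the inactive X chromosome, was nearly absent although the host mice were female. A Xist UMI was seen in 5 of 207 LC427 members (2.42%, 0.789 to 5.55) and 7 of 79 vehicle members (8.86%, 3.64 to 17.4). It was seen in 52.9% of LC427 and 61.4% of vehicle other cells, which were shallower. With every cell thinned to 1000 UMIs the shares were 0.966% in LC427 members and 1.27% in vehicle members, against 28.3% and 29.9% in the other cells. The Dcn or Lum barcodes were nearer to the members, at 6 of 145 (4.14%) in LC427 and 12 of 99 (12.1%) in vehicle. The Ptprc barcodes were nearer to the other cells, at 45.9% in LC427 and 48.5% in vehicle. Cdkn2a and Cdkn2b, neighbouring cell-cycle inhibitor genes on chromosome 4, had 0 UMIs in the members of either library. Cdkn2a was at 1.06 CPM in LC427 other cells and 1.91 CPM in vehicle other cells, so at this depth its absence from members cannot be told from a low level. Ctla4 had 0 UMIs in members, and Lrba, which encodes a BEACH protein of vesicle traffic, had 35 UMIs in LC427 members and 17 UMIs in vehicle members (12.6 and 9.93 CPM).

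A cluster with the same genes was present in the authors' deposited tables of cluster means. In the authors' deposited table for LC427, cluster 8 of 11 was highest for all 8 genes of the rule, with a mean count signal of 1.09 for Tm4sf1, 0.0261 for Ptprc and 0.0292 for Xist. In the authors' deposited table for vehicle, cluster 10 of 13 was highest for them, with a mean count signal of 2.26 for Tm4sf1, 0.0613 for Ptprc and 0.0929 for Xist. Both clusters also held Dcn, at 0.393 in LC427 and 0.758 in vehicle in the authors' deposited tables, so they were not limited to Dcn-free cells.

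Genes outside the rule also set the members apart from the other cells, but not from the Dcn or Lum barcodes. Among genes with at least 200 CPM in members of both libraries, 15 of the 20 with the largest fold over other cells were not part of the rule. Tnnt2, a troponin of heart muscle, stood at 210 CPM in LC427 members and 203 CPM in vehicle members, against less than 2 CPM in the other cells of either library. Cd34, an adhesion sialomucin known from progenitors and endothelium, stood at 282 CPM in LC427 members and 277 CPM in vehicle members. The gelatinase gene Mmp2 had 243 CPM in LC427 members and 265 CPM in vehicle members, and the actin-binding Cald1 had 737 and 660 CPM. These 4 genes differed by less than 1.2-fold between the libraries. The caveolar Cavin3 stood at 276 CPM in LC427 members and 476 CPM in vehicle members, and Ly6c1 at 457 CPM in LC427 members and 849 CPM in vehicle members. In the other cells, at far lower levels, their ratios were 0.549 and 0.598, close to the 0.580 and 0.538 in members. The other genes of this group were Tubb3, Cavin1, Dpysl3, Crip2, Pcolce, Serpinh1, Fstl1, Fbln2 and Aebp1, with 207 to 560 CPM in the members. In the Dcn or Lum barcodes Cd34 stood at 290 CPM in LC427 and 320 CPM in vehicle, and Mmp2 at 335 and 398 CPM. There Ly6c1 stood at 753 CPM in LC427 and 1275 CPM in vehicle, and Tnnt2 at 187 and 179 CPM.

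Members were more frequent in the LC427 library, at 3.27% of LC427 cells (2.85 to 3.74) and 1.51% of vehicle cells (1.19 to 1.87), a ratio of 2.17. With the Dcn or Lum barcodes kept, the shares were 5.56% and 3.39% in that order, a ratio of 1.64. CD45 selection on beads and dead cell removal set such shares, so they do not give the make-up of the tumours.

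Between the libraries, 7730 genes had at least 50 UMIs in members and were compared, with the rule's 11 genes left out. Of these, 711 (9.20%) were at least 1.5-fold higher in LC427 members and 666 (8.62%) at least 1.5-fold lower, with a median log2 ratio (LC427 over vehicle) of 0.04 over all 7730. Without the 3 endothelial and pericyte barcodes, 8.45% of 7654 genes were higher and 8.26% lower. In the Dcn or Lum barcodes 9.28% of 7372 genes were higher and 9.55% lower, and in the other cells 6.56% of 11493 were higher and 6.09% lower, with medians of 0.04 and 0.09. Part of what differed was common to the libraries as a whole. The genes with the most UMIs in members were Gm42418, S100a6, Gm10076 and ribosomal protein genes, and of these Rpl37a was 1.63-fold higher in LC427 members and 1.56-fold higher in LC427 other cells. S100a6, a calcium-binding protein, stood at 20008 CPM in LC427 members and 14026 CPM in vehicle members, a ratio of 1.43, and at a ratio of 1.42 in the other cells.

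**Figure D2:**
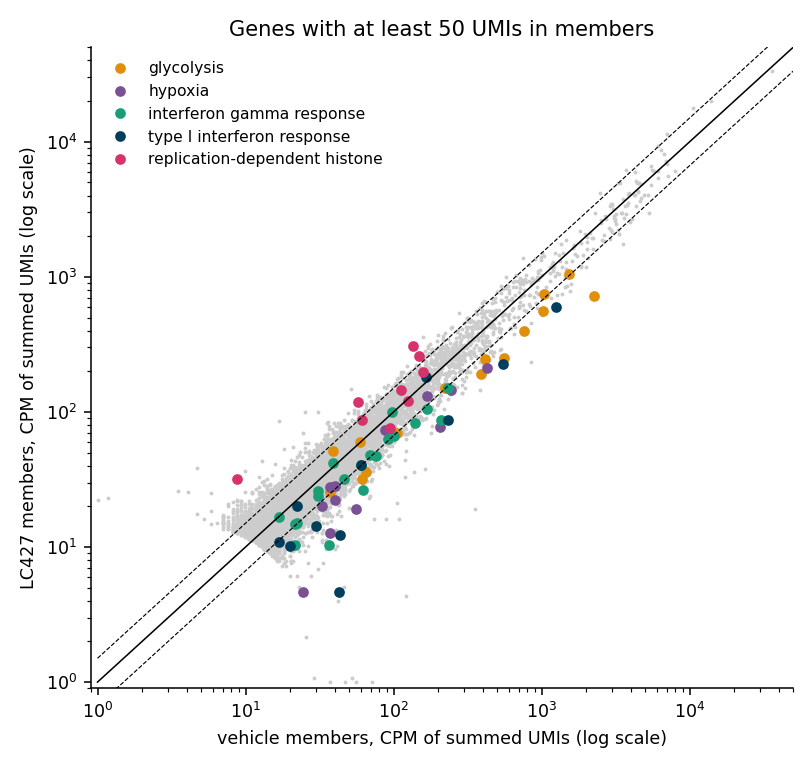
CPM of the 7730 compared genes in LC427 members (vertical, log scale) and vehicle members (horizontal, log scale), with values under 1 CPM drawn at 1, the solid line at equal levels and the dashed lines at 1.5-fold. Glycolysis and hypoxia genes lie mostly below the solid line, such as Gapdh at 721 CPM in LC427 and 2272 CPM in vehicle, and the coloured histone genes lie mostly above it.

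Glycolytic enzyme genes were lower in LC427 members than in vehicle members. Of 15 glycolysis genes compared, 8 were at least 1.5-fold lower and 0 higher (8.62% of all genes lower). Their median log2 ratio was -0.74. Gapdh stood at 721 CPM in LC427 members and 2272 CPM in vehicle members, a ratio of 0.317 (0.300 to 0.335). Gapdh has many near-identical pseudogenes, which can share its reads. Aldoa, the aldolase that splits fructose bisphosphate, stood at 250 CPM in LC427 members and 561 CPM in vehicle members, a ratio of 0.446 (0.404 to 0.492). Pgk1, an ATP-forming kinase, stood at 396 CPM in LC427 members and 762 CPM in vehicle members (0.520, 0.479 to 0.564). Ldha, the lactate dehydrogenase, stood at 559 CPM in LC427 members and 1029 CPM in vehicle members (0.543, 0.507 to 0.582). The glucose transporter gene Slc2a1 was at a ratio of 0.517, while the hexokinases Hk1 and Hk2, at the entry of the pathway, were at 1.01 and 1.31. The list stood at a median log2 ratio of -0.80 without the 3 endothelial and pericyte barcodes and of -0.71 in the Dcn or Lum barcodes, against -0.19 in the other cells. In the other cells 1 of 15 genes was at least 1.5-fold lower: Gapdh, at 871 CPM in LC427 and 1765 CPM in vehicle.

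Promoters of Pgk1 and Ldha are shown because both genes hold the core letters of the hypoxia-response element, ACGTG, in the 250 bases upstream of a RefSeq start (build GRCm38.p6). Read on both strands, the core was present upstream of 8 of 15 glycolysis genes (53.3%) and 9 of 11 hypoxia genes with a listed promoter (81.8%), against 4998 of 27025 genes (18.5%). Capitals mark the matches, and a CACGTG palindrome holds a match on either strand, overlapping. Pgk1 lies at chrX:106186850-106187099 on the plus strand and has 2 matches, and Ldha lies at chr7:46845554-46845803 on the plus strand and has 5, at the shown 1 of its 2 listed starts. A match describes these letters and no binding was measured.
Pgk1: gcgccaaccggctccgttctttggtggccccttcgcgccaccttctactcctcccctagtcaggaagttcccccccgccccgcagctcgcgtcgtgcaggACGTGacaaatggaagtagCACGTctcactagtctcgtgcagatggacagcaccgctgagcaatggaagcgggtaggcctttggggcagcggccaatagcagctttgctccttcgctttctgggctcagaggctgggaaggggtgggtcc
Ldha: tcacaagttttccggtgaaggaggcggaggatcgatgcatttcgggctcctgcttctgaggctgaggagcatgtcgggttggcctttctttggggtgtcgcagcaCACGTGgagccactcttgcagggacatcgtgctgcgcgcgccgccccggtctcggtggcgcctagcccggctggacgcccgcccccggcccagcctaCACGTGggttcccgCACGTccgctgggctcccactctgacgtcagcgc

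Genes of the hypoxia response followed the same direction. Of 12 compared, 8 were 1.5-fold lower or more in LC427 members (8.62% of all genes lower) and 0 were higher. The median log2 ratio was -0.80, against -0.56 in the Dcn or Lum barcodes and -0.58 in the other cells. Bnip3, a mitophagy receptor, stood at 77.1 CPM in LC427 members and 206 CPM in vehicle members, a ratio of 0.374 (0.314 to 0.444). Vegfa, the vessel growth factor, stood at 145 CPM in LC427 members and 244 CPM in vehicle members, a ratio of 0.596 (0.519 to 0.685). The mitochondrial Higd1a stood at 212 CPM in LC427 members and 426 CPM in vehicle members. Egln3, an oxygen-sensing hydroxylase, had 13 UMIs in LC427 members and 42 UMIs in vehicle members, a ratio of 0.191 (0.0940 to 0.363). Ankrd37 and Ddit4 were at 0.344 and 0.337, while Ndrg1 and P4ha1 were at 0.775 and 0.849. The hypoxia list was thus lower in all 3 cell groups of the LC427 library, whereas glycolysis was mainly lower in the members and the Dcn or Lum barcodes; neither difference between groups was tested.

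Nuclear genes of the respiratory chain stood slightly the other way. Of 17 compared, 1 was at least 1.5-fold higher in LC427 members (9.20% of all genes higher) and 0 lower, with a median log2 ratio of 0.30, against 0.26 in the Dcn or Lum barcodes and 0.15 in the other cells. Uqcr11, a subunit of complex III, stood at 856 CPM in LC427 members and 530 CPM in vehicle members, a ratio of 1.62. Cox7c, a subunit of cytochrome oxidase, was at 1413 CPM in LC427 members and 992 CPM in vehicle members. Sdhb and Cox5a, of complexes II and IV, were at ratios of 0.726 and 0.848, so not every gene of the list stood higher.

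Type I interferon genes were lower in LC427 members, in part through a few vehicle barcodes. Of 11 compared, 8 were below 1 by 1.5-fold or more (8.62% of all genes lower) and 0 above it. Their median log2 ratio was -1.05, or -0.91 without the 3 endothelial and pericyte barcodes. Ifitm3, a membrane protein that blocks virus entry, stood at 596 CPM in LC427 members and 1252 CPM in vehicle members, a ratio of 0.476 (0.447 to 0.508). Bst2, which tethers budding virus, stood at 226 CPM in LC427 members and 549 CPM in vehicle members (0.411, 0.371 to 0.455). Isg15, a ubiquitin-like modifier, stood at 87.9 CPM in LC427 members and 233 CPM in vehicle members (0.377, 0.320 to 0.443). A single vehicle barcode of 58383 UMIs held 182 of the 399 Isg15 UMIs and 180 of the 940 Bst2 UMIs in vehicle members, and for Rsad2 another held 51 of 73. With the highest barcode of each gene left out in each library, Isg15 was at a ratio of 0.577, Bst2 at a log2 ratio of -1.08 and Rsad2 at -1.83. The list's median was then -0.79, against 0.10 over all genes. In the Dcn or Lum barcodes the list's median was -0.30, with Isg15 at a log2 ratio of -0.03 and Ifit1 at 1.45, and in the other cells it was 0.33.

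Promoters of Isg15 and Bst2 are shown because they hold the pattern of an interferon-stimulated response element, searched here as a pair of GAAA runs with any 2 bases between them. On both strands of the 250 upstream bases, it was present for 6 of 10 type I interferon genes and 9 of 16 interferon gamma genes (56.2%) with a listed promoter, against 936 of 27025 genes (3.46%). Of 12 genes of MHC class I and peptide loading, 2 had it. Isg15 lies at chr4:156200819-156201068 on the minus strand with 3 overlapping matches, and Bst2 at chr8:71537473-71537722 on the minus strand with 2 overlapping matches (GRCm38.p6, RefSeq). Capitals mark the matches.
Isg15: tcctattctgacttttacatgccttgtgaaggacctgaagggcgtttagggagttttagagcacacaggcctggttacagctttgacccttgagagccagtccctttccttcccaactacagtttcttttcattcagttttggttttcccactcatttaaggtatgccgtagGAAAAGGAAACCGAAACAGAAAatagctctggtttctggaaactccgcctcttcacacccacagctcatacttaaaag
Bst2: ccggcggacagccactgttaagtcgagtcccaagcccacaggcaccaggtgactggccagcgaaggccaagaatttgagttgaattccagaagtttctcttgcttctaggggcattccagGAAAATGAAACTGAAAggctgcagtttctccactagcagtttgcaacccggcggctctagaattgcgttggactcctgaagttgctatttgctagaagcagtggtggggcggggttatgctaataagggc

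Interferon gamma and MHC class I genes were lower in LC427 members, while in the other cells the interferon gamma median was higher in LC427. In the interferon gamma list 9 of 20 genes compared were 1.5-fold lower or more (8.62% of all genes lower) and 0 were higher. The median log2 ratio was -0.56, against -0.57 in the Dcn or Lum barcodes and 0.36 in the other cells. Cxcl10, a T cell attracting chemokine, stood at 86.5 CPM in LC427 members and 208 CPM in vehicle members, a ratio of 0.416 (0.352 to 0.491). The guanylate-binding Gbp2 stood at 151 CPM in LC427 members and 234 CPM in vehicle members, and Tgtp1, an interferon-induced GTPase, at 10.4 and 36.8 CPM. Ifngr1, a receptor chain, and Jak1, its kinase, were at ratios of 1.08 (0.791 to 1.48) and 1.02 (0.838 to 1.24). Cxcl9 depended on single barcodes, with 117 of its 174 UMIs in LC427 members in 1 barcode, and its log2 ratio of -0.54 turned to 0.52 without the 3 endothelial and pericyte barcodes.

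Of 14 genes of MHC class I and peptide loading, 4 were at least 1.5-fold lower in LC427 members (8.62% of all genes lower) and 0 higher. The median log2 ratio was -0.51, against -0.44 in the Dcn or Lum barcodes and 0.11 in the other cells. H2-D1, a class I heavy chain, stood at 884 CPM in LC427 members and 1568 CPM in vehicle members, a ratio of 0.563 (0.533 to 0.595). H2-K1, the other classical heavy chain, stood at 1003 CPM in LC427 members and 1449.9 CPM in vehicle members (0.692, 0.655 to 0.731). B2m, the shared light chain, stood at 1025 CPM in LC427 members and 1448 CPM in vehicle members (0.708, 0.671 to 0.747). The immunoproteasome genes Psmb8 and Psmb9, which cut peptides for loading, were at ratios of 0.476 (0.415 to 0.545) and 0.439 (0.368 to 0.524). The transporter genes Tap1 and Tap2 were at 0.783 and 0.670, and the class I activator Nlrc5 at 1.05. Class I heavy chains are near-identical in sequence, so reads may have been split between them. MHC class II genes, which belong to professional antigen-presenting cells, were at 254 CPM in sum in LC427 members and 375 CPM in vehicle members, against 12293 and 10597 CPM in the other cells, and 3 of 6 were at least 1.5-fold lower. For Cd74, the class II chaperone, 84 of 246 UMIs in LC427 members lay in 1 barcode.

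**Figure D3:**
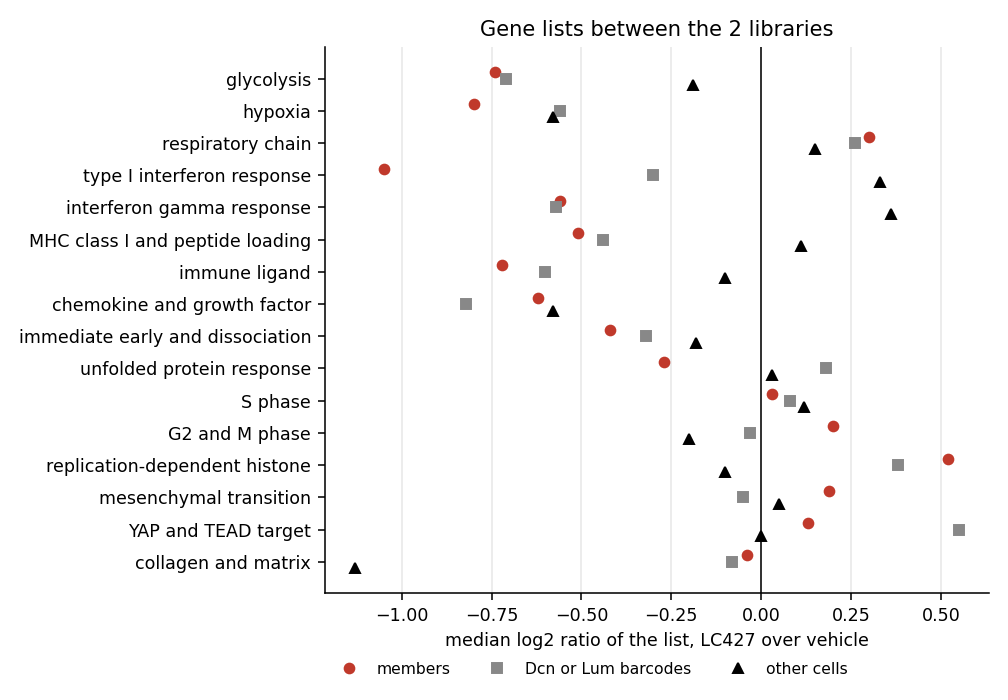
Median log2 ratio, LC427 over vehicle, of 16 gene lists in members (circles), Dcn or Lum barcodes (squares) and other cells (triangles). Type I interferon genes lie at -1.05 in members and 0.33 in other cells, interferon gamma genes at -0.56 and 0.36, and glycolysis genes at -0.74 and -0.19.

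Most of the immune ligand and secreted signal genes that differed were lower in LC427 members. The immune ligand list had 8 genes compared, of which 5 were 1.5-fold lower or more (8.62% of all genes lower) and 0 higher, with a median of -0.72. Without the 3 endothelial and pericyte barcodes 3 of 7 were lower, with a median of -0.56. Tnfsf9, a costimulatory ligand, had 17 UMIs in LC427 members and 34 UMIs in vehicle members, a ratio of 0.308 (0.162 to 0.568). Cd47, the signal against phagocytosis, had 184 CPM in LC427 members and 230 CPM in vehicle members. Tgfb1 was at a log2 ratio of -0.91, or -0.20 without the 3 endothelial and pericyte barcodes. Cd274, the gene of PD-L1, had 21 UMIs in LC427 members and 20 UMIs in vehicle members, too few to be compared here. Of 11 chemokine and growth factor genes, 6 were at least 1.5-fold lower and 1, Cxcl2, was higher (1.40-fold without its highest barcodes), with a median of -0.62 against -0.58 in the other cells. Without the 3 endothelial and pericyte barcodes 5 were lower and the median was -0.33. Ccl2, a chemokine for monocytes, stood at 218 CPM in LC427 members and 448 CPM in vehicle members (0.487, 0.437 to 0.543), and its relative Ccl7 at 16.2 and 88.8 CPM (0.183, 0.128 to 0.256). The cytokine Mif stood at 1212 CPM in LC427 members and 1859 CPM in vehicle members.

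Stress-response lists gave smaller differences, to be read beside 8.62% of all genes lower and 9.20% higher. Of 14 immediate early genes, which rise during tissue digestion as well as in tissue, 4 were at least 1.5-fold lower in LC427 members and 0 higher, at a median log2 of -0.42. Fos stood at 89.7 CPM in LC427 members and 213 CPM in vehicle members, a ratio of 0.422, while Egr1 was at 0.942. Of 11 genes of the unfolded protein response, 2 were lower, Chac1 and Trib3, and 1 was higher, Pdia4, with a median of -0.27 against 0.18 in the Dcn or Lum barcodes. Chac1, a glutathione-degrading enzyme, had 14 UMIs in LC427 members and 39 UMIs in vehicle members. Of 8 p53 targets, 2 were lower (8.62% of all genes lower) and 0 higher. They were Cdkn1a, the cell-cycle inhibitor p21, at 69.2 CPM in LC427 members and 119 CPM in vehicle members, and Gdf15, a stress cytokine, at 25.6 and 63.7 CPM.

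The S phase list was at a close level in the libraries, and histone genes were higher in LC427 members. Past 1.5-fold, 9.20% of all genes were higher and 8.62% lower. Of 16 S phase genes, Hells and Cdc6 were higher and Tyms lower, with a median log2 ratio of 0.03, and of 16 G2 and M phase genes, Cenpf was higher and Aurkb lower, with a median of 0.20. Cenpf, a kinetochore protein, stood at 366 CPM in LC427 members and 216 CPM in vehicle members, a ratio of 1.70 (1.51 to 1.92). With every cell thinned to 1000 UMIs its log2 ratio was -0.08. Top2a, a topoisomerase of dividing cells, stood at 540 CPM in LC427 members and 409 CPM in vehicle members, and Mki67 at 264 and 202 CPM. Of 9 replication-dependent histone genes, 4 were at least 1.5-fold higher in LC427 members and 0 lower, with a median of 0.52, against 0.38 in the Dcn or Lum barcodes and -0.10 in the other cells. Hist1h2ap stood at 310 CPM in LC427 members and 136 CPM in vehicle members, a ratio of 2.29 (1.98 to 2.65), and Hist1h2ae at 258 and 148 CPM, a ratio of 1.75 (1.51 to 2.02). Hist1h3c had 88 UMIs in LC427 members and 15 UMIs in vehicle members. These genes are near-identical copies and most of their messages lack a poly(A) tail, so counts of single copies are uncertain.

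The mesenchymal list was close between the libraries, with some members apart. The counts below stand beside 9.20% of all genes higher and 8.62% lower. Of 16 mesenchymal genes, 1 was higher and 1 lower, with a median log2 ratio of 0.19. The higher gene, the matrix protein Tnc, had 70 of its 71 UMIs in LC427 members in the fibroblast-rich barcode and was at a log2 ratio of -0.70 without its highest barcodes. Twist1, a mesenchymal transcription factor, stood at 52.6 CPM in LC427 members and 89.4 CPM in vehicle members, a ratio of 0.589 (0.466 to 0.743). Of 13 YAP and TEAD targets and partners, Ajuba was higher and Gadd45a lower, with a median of 0.13, against 0.55 in the Dcn or Lum barcodes. The scaffold Ajuba had 94 UMIs in LC427 members and 26 UMIs in vehicle members, a ratio of 2.23 (1.43 to 3.59). Of 21 collagen and matrix genes, 1 was higher, Col5a2, and 3 were lower, with a median of -0.04. Among the lower ones were genes that rested on the endothelial and pericyte barcodes: Col4a1 and Col4a2, the collagen IV chains, were at log2 ratios of -2.11 and -1.85 with them and -0.27 and -0.81 without. The fibroblast list was at a median of 0.26, or -0.39 with the highest barcode of each gene left out.

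Of the further lists, some held no gene past 1.5-fold and others held 1 or 2 lower genes, to be read beside 8.62% of all genes lower. None of the 4 Wnt pathway genes, 5 genes of the EGF receptor family or 5 BEACH family genes compared was past 1.5-fold either way, where 17.8% of all genes were. Of 6 genes of intestinal regeneration 2 were lower: Ly6a, also called Sca-1, at 728 CPM in LC427 members and 1269 CPM in vehicle members (0.573, 0.539 to 0.609), and the secreted phosphoprotein Spp1, at 146 and 381 CPM (0.383, 0.337 to 0.434). Of 16 annexin and S100 genes 1 was lower, S100a16, and it turned to a log2 ratio of 0.31 without the 3 endothelial and pericyte barcodes. Of 7 matrix metalloproteinases and relatives 1 was lower, the sheddase Adam17. Of 4 retinoid genes 2 were lower, among them the binding protein Crabp2, at 84.7 CPM in LC427 members and 201 CPM in vehicle members (0.421, 0.355 to 0.499). Without the 3 endothelial and pericyte barcodes 1 of 3 retinoid genes was lower, and with the highest barcode of each gene left out 1 was lower and the median was -0.24, against -0.62 with all barcodes.

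Among the genes ranked by the counting bound nearest to 1, Pbld1 stood out on the higher side. It encodes a protein with a phenazine biosynthesis-like domain and had 236 UMIs in 87 of 207 LC427 members, against 29 UMIs in 18 of 79 vehicle members, which is 85.0 and 16.9 CPM and a ratio of 5.02 (3.41 to 7.66). In the Dcn or Lum barcodes Pbld1 was 7.28-fold higher in LC427, and in the other cells 2.19-fold. Ttf1, a transcription terminator of ribosomal genes, was at 3.94 (2.85 to 5.58) in members and 2.23 in the other cells. Ncl, the nucleolar protein nucleolin, stood at 1383 CPM in LC427 members and 744 CPM in vehicle members (1.86, 1.74 to 1.98), and at a ratio of 1.57 in the other cells. Il1rl1, the receptor of interleukin 33, was at 3.20 (2.38 to 4.38) in members and 0.917 in the Dcn or Lum barcodes. Nr2f2, an orphan nuclear receptor, was at 2.32 (1.65 to 3.33) and almost absent from the other cells. Other genes of the higher group were Hist1h2ap, Gm17494, Dqx1, Zzz3, Pkn2 and Trim59, at ratios of 1.86 to 2.93.

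The same limits on the lower side left out genes such as Gapdh, which was not 2 times as high in vehicle members as in vehicle other cells. The 12 genes ranked there are thus not the 12 lowest of all compared genes. Of these 12, 8 lost their call or moved by over 1.5-fold without the 3 endothelial and pericyte barcodes, the collagen IV genes among them. Rgs5, a pericyte gene, had 0 UMIs in LC427 members and 95 UMIs in 2 vehicle members, and Mgp and Igfbp3 had 89 and 207 vehicle UMIs in 3 and 2 barcodes. Without those barcodes these 3 genes had too few UMIs to be compared, and Igfbp7 went to a log2 ratio of -0.57, against -4.21 with them. Id3 stood at -2.19 with them and -0.61 without. Of the others, the small heat shock protein Cryab had 59 UMIs in LC427 members and 179 UMIs in vehicle members, 86 of them in 1 barcode. Its ratio was 0.203 (0.149 to 0.274), or 0.312 with the highest barcode left out. Nppb, a natriuretic peptide gene, had 193 UMIs in LC427 members and 307 UMIs in vehicle members, 91 of them in 1 barcode, at a ratio of 0.388 (0.322 to 0.466). Gm8797 was at 0.258 (0.202 to 0.327) in members and 0.397 in the other cells, and Ecscr, an endothelial surface protein, at 0.342 (0.249 to 0.466), or at a log2 ratio of -0.96 without those barcodes.

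Within each library the members varied widely, and the lists differed in how far the libraries overlapped. Glycolysis genes took a median of 42.2 UMIs per 10000 in LC427 members (4.86 to 145) and 76.7 in vehicle members (33.1 to 224). Of the LC427 members, 191 (92.3%) lay below the vehicle median, so the difference ran through most cells and not through a few. For hypoxia 168 LC427 members (81.2%) lay below the vehicle median, for MHC class I 163 (78.7%) and for type I interferon genes 160 (77.3%). Interferon gamma genes took a median of 3.95 UMIs per 10000 in LC427 members (0 to 196) and 6.66 in vehicle members (0 to 80.2), and 141 LC427 members (68.1%) lay below the vehicle median. The highest interferon gamma cells were in the LC427 library, although its median was lower. S phase and G2 and M phase genes had 48.8% and 44.4% of LC427 members below the vehicle median.

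**Figure D4:**
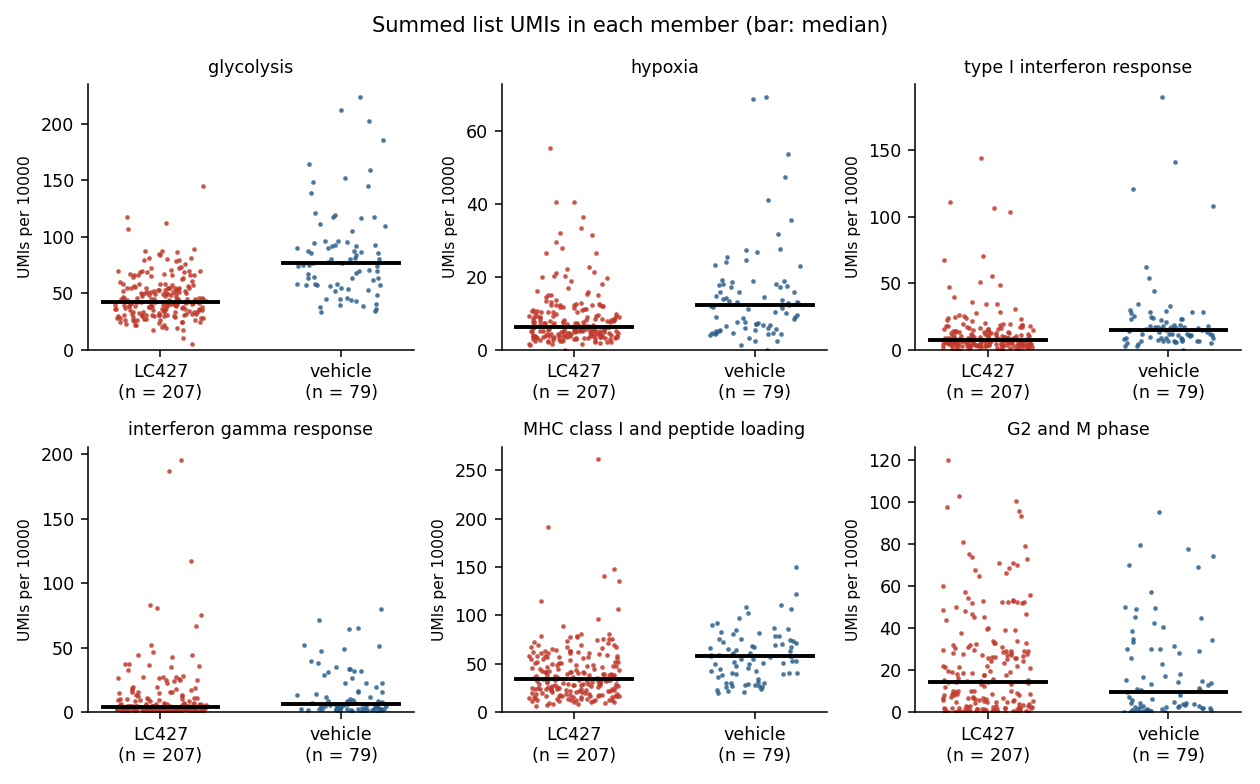
Summed UMIs of 6 gene lists per 10000 UMIs in each member (points), LC427 at left with 207 members and vehicle at right with 79, bars at the median; horizontal spread is only for display. Glycolysis is centred at 42.2 in LC427 and 76.7 in vehicle, and G2 and M phase at 14.4 and 9.67 with wide overlap.

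Across members, hypoxia and glycolysis went together, and interferon lists formed a separate axis. As a description over cells of 1 library each, which share depth and free RNA, Spearman's rho between glycolysis and hypoxia was 0.37 over 207 LC427 members and 0.74 over 79 vehicle members. Between interferon gamma and MHC class I it was 0.56 in LC427 and 0.45 in vehicle, and between glycolysis and interferon gamma -0.02 and -0.12. Glycolysis and depth had a rho of -0.06 in LC427 and 0.07 in vehicle.

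At equal depth the shares of members with a UMI kept these directions. With each cell thinned to 1000 UMIs, Gapdh was seen in 48.3% of LC427 members (41.3 to 55.3) and 81.0% of vehicle members, or 95.2% of LC427 members unthinned. In the other cells it was seen in 48.2% and 66.4%. Ifitm3 was seen in 35.7% of LC427 members and 63.3% of vehicle members, against 36.7% and 36.1% of the other cells. B2m was seen in 60.4% of LC427 members and 78.5% of vehicle members, against 77.6% and 86.0% of the other cells. Psmb8 was seen in 14.0% of LC427 members (9.59 to 19.5) and 25.3% of vehicle members (16.2 to 36.4), and these intervals overlapped. In the other cells Psmb8 was seen in 26.4% and 24.6%. Top2a was seen in 30.0% of LC427 members (23.8 to 36.7) and 17.7% of vehicle members (10.0 to 27.9), so the intervals overlapped, and Mki67 was seen in 14.5% of LC427 and 11.4% of vehicle members. Tm4sf1 stood at 40.6% and 50.6% of members, against 0.168% and 0.298% of the other cells.

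Clustered alone, with the rule's genes left out, the 286 members fell into 5 groups of 85, 72, 58, 53 and 18 barcodes, which are left unnamed. The group of 85 was led by histone and mitotic genes, that of 72 by Slx1b and Pbld1, and that of 58 by interferon-induced GTPases such as Irgm2 and Iigp1. The group of 53 was led by Igfbp7 and collagen IV genes and held the 3 endothelial and pericyte barcodes. The group of 18 was led by C1qb and Laptm5 and held 8 of the 12 members with Xist. Its median leucocyte share was 0.376% of UMIs, against 0.00397% to 0.00731% in the other 4 groups. The libraries were spread differently over the groups: those of 85 and 72 held most LC427 members (71 and 61 of 207), and those of 53 and 58 most vehicle members (28 and 20 of 79). Since genes that lead these groups differ between the libraries, their sizes are not read as a change.

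The library differences were therefore also taken within each group, as a description. Here the values summed were UMIs scaled per cell and log-transformed, which compresses differences. The ratios therefore cannot be set beside the CPM ratios above, and the genes that lead each group were ranked on the same values. On this scale glycolysis genes were lower in LC427 in all 5 groups, at ratios of 0.759 to 0.831, and so were hypoxia genes, at 0.630 to 0.960. Type I interferon genes were at 0.634 to 0.952. MHC class I genes were at 0.757 to 1.00 and interferon gamma genes at 0.653 to 1.28, with the value above 1 in the group of 53. Histone genes were at 1.03 in the group of 85, where their summed value was highest, and at 0.856 to 1.77 over the 5 groups. On the log-transformed scale glycolysis and hypoxia genes thus had the same direction in every group, whereas interferon gamma and histone genes did not. Directions in summed UMIs within the groups were not computed.

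By chromosome, members and Dcn or Lum barcodes shared a pattern that was much alike in both libraries. The median gene of chromosome 15 was 0.33 (log2) above the other cells in LC427 members and 0.23 above them in vehicle members. On the X chromosome the medians were 0.29 in LC427 and 0.30 in vehicle members. Among the lowest medians were those of chromosome 19, at -0.21 in LC427 and -0.17 in vehicle members, and chromosome 12, at -0.20 and -0.18. In the Dcn or Lum barcodes chromosome 15 stood at 0.27 in LC427 and 0.28 in vehicle, and X at 0.26 and 0.39. Gene dosage and cell type cannot be told apart in these medians, since each chromosome carries its own set of cell type genes.

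**Figure D5:**
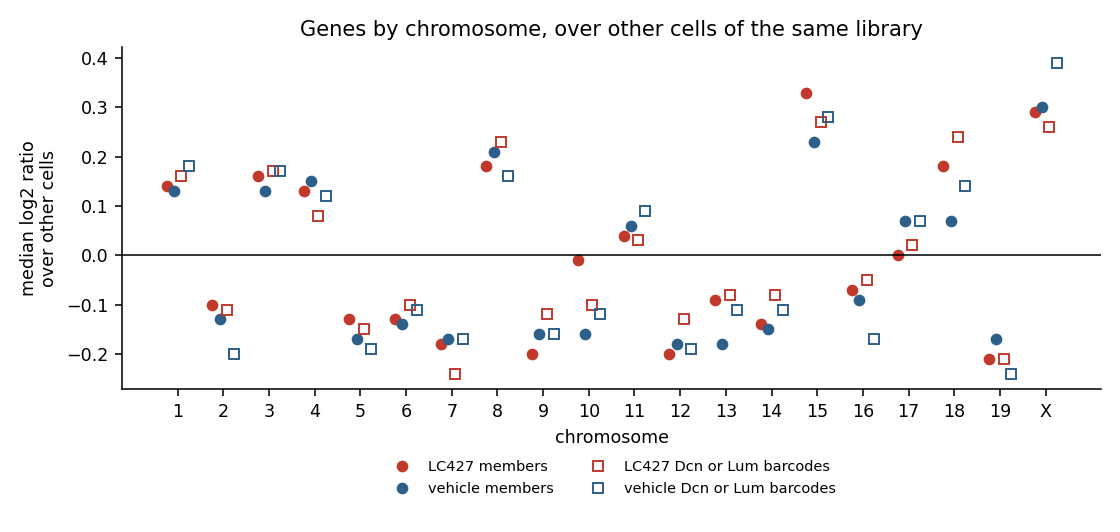
Median log2 ratio of the genes of each chromosome over the other cells of the same library, for LC427 (red) and vehicle (blue), members as filled circles and Dcn or Lum barcodes as open squares; the 3 endothelial and pericyte barcodes were left out. Chromosome 15 lies at 0.33 in LC427 and 0.23 in vehicle members, and chromosome 19 at -0.21 and -0.17.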

How the data were processed

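Per the labels, CD45-selected cells of MC38 tumours were profiled with 10x 5′ chemistry in 1 LC427 and 1 vehicle library. The authors deposited unfiltered matrices of UMI counts over 32285 genes, holding 28732435 UMIs in LC427 and 33711726 in vehicle over all barcodes, cells or not. Cell Ranger 3.0.1, Seurat 3 and GRCm38 are given in the submitters' processing notes, but the matrices name Cell Ranger 4, per the file headers. The authors also deposited cluster tables of a mean count signal, a log2 fold change and adjusted p-values, of which only the mean signal is given. For mitochondrial share 12 LC427 and 137 vehicle barcodes were removed. Scrublet (scanpy 1.11.5) called 0 doublets and was taken not to have worked, so none were removed.

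Members' UMIs were summed per library (numpy 2.4.6, scipy 1.17.1) and genes with at least 50 UMIs compared at 1.5-fold, with exact binomial intervals for ratios and shares. The comparison and the ratio intervals were run on simulated counts, the share intervals were not. The simulated counts had no spread between cells, so that run says nothing on such spread. Genes at 0 were set to a floor of 3 counts per library. Members were clustered with leidenalg 0.10.2. Gene positions come from GENCODE vM21 (32158 of 32285 genes matched) and promoters from RefSeq. The members and gene lists were chosen with earlier results of these data known. Named genes are the rule's 8 genes, the 20 of largest fold over other cells, up to 4 of each list, and the 8 with most UMIs. Up to 12 each way were also named, ranked by their counting bound under the limits on level given above. Others were chosen after their values were seen. Some of the named genes are not reported here.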

Additional observations from a re-analysis of the deposited data

Results flagged for a closer look

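In 8 gene lists the median log2 ratio (LC427 over vehicle) had one sign in members and the other in the other cells of the same libraries. The 2 medians of each of these lists lay at least 1.5-fold apart, with at least 5 genes compared in members and in other cells. Further lists with opposite signs lay closer together, such as G2 and M phase genes (0.20 in members, -0.20 in other cells). None of these differences was tested. Over all genes the median was 0.04 in members and 0.09 in other cells, so the MHC class I value in other cells lay close to that of all genes. Members were lower in LC427 and other cells higher for type I interferon genes (-1.05 in members, 0.33 in other cells), interferon gamma genes (-0.56 and 0.36), MHC class I genes (-0.51 and 0.11) and MHC class II genes (-0.48 and 0.42). Members were higher in LC427 and other cells lower for the histone list (0.52 and -0.10), the leucocyte list (0.59 and -0.27), the macrophage list (0.60 and -0.54) and the fibroblast list (0.26 and -2.07). With the highest barcode of each gene left out, the fibroblast list was at -0.39 in members, the same sign as in other cells. The leucocyte and macrophage lists had 5 genes each with enough UMIs in members, and 3 of each were at least 1.5-fold higher (9.20% of all genes higher). Without the 3 endothelial and pericyte barcodes, 4 of 5 leucocyte genes and 1 of 5 macrophage genes were higher (8.45% of all genes higher). In the Dcn or Lum barcodes the leucocyte median was -0.14 and the macrophage median -0.81. Both lists were low in members: the leucocyte list summed to 145 CPM in LC427 members, against 9114 CPM in LC427 other cells. A group of 18 members, 12 in LC427 and 6 in vehicle, was led by such genes.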

How the results depend on the processing

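No paired analysis was possible because each condition is 1 library. The share ratio of 2.17 lay between 1.99 and 2.74 under the other ways of choosing cells, and at 1.64 with Dcn and Lum barcodes kept. The counts of 711 genes higher and 666 lower became 117 and 99 with cells thinned to 1000 UMIs (781 genes compared), 1168 and 1064 with at least 20 UMIs a gene, 209 and 230 with at least 200, 2489 and 3643 with at least 1 UMI, 95 and 146 at a fold of 2, and 414 and 372 among genes at least as high in members as in other cells. With the median of all genes set to 0 they were 592 and 778. In 4 alternatives chosen after seeing the data they were 647 and 632 without the endothelial and pericyte barcodes, 619 and 630 without members with Xist, 653 and 627 without members with 3 or more leucocyte genes, and 948 and 548 with the highest barcode of each gene left out. Of 387 list medians recomputed, 375 moved little, 12 moved further and 0 changed sign past the fold. Over these settings glycolysis ranged from -0.83 to -0.27, hypoxia from -0.93 to -0.37, type I interferon from -1.16 to -0.53, interferon gamma from -1.53 to -0.33, MHC class I from -0.55 to -0.38 and histones from 0.27 to 1.20. Of 1511 gene values 3 changed sign: Cenpf at -0.08 when thinned, and Tnc at -1.91 with Dcn and Lum barcodes kept and -0.70 without its highest barcodes. Free RNA in members was estimated at 2.80% in LC427 and 1.90% in vehicle. The estimate takes all leucocyte list UMIs in members as free RNA, also those of members led by leucocyte genes, so free RNA may be less. With 79 vehicle members, genes under 50 UMIs were not compared.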

Other observations

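The barcodes with at least 3 of the rule's genes and a Ptprc UMI, 37 in LC427 and 33 in vehicle, had median doublet scores of 0.132 in LC427 and 0.164 in vehicle, against 0.0530 and 0.0628 in members. Their median UMI counts were 13027 in LC427 and 22875 in vehicle, close to the members' 12601 and 20044.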
